A study of Mus musculus with 10 samples.

Results

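A set of 10 genes that lie at the start and at the brake of mitogen-activated protein kinase (MAPK) signalling were followed in bEnd.3 cells, a mouse brain endothelial cell line. They were picked by gene name and comprise 6 transcription factors of the immediate early class (Fos, Fosl1, Jun, Junb, Egr1 and Atf3) and 4 negative regulators of the pathway (Dusp1, Dusp6, Spry2 and Spry4), that is, 10 of the 27024 named genes in the deposited expression table. The 5 treated samples received 5 nM StcE, a bacterial protease that cleaves mucin-domain glycoproteins, for 16 h, and the 5 control samples received saline. The comparison asks how the transcriptome of these cells responds to mucin degradation. All samples are 1 immortalized line of wild-type genotype as labelled, a line made with polyoma middle T antigen, which itself engages growth factor signalling, and the control was saline and not an inactive form of the enzyme. Nothing in the sources used here says whether the 5 samples of a group were separate cultures, so the p-values measure the spread between these samples, which may be technical.

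Immediate early genes are transcribed within minutes of a stimulus, without new protein synthesis, and many are then silenced again. Fos and Jun family proteins pair to form the AP-1 transcription factor, Egr1 is a zinc finger factor induced through the ERK branch of the MAPK pathway, and Atf3 is a stress-induced factor of the ATF/CREB family. Dual specificity phosphatases (Dusp) remove the activating phosphates from MAP kinases and Sprouty proteins (Spry) restrain the pathway between receptor and ERK, so that transcription of these genes after ERK activation closes a negative feedback loop. At 16 h the levels are those of a late time point, not of the first wave of induction.

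The promoters of members are shown because many immediate early genes share short control elements. RefSeq entries (GRCm38.p6) were matched for 7 members, not for Fosl1, Egr1 and Spry4. The 250 bases before the annotated start are printed 5′ to 3′ for the 3 members with an entry that were higher after StcE (Jun, Dusp1 and Spry2) and for Fos. The Jun window lies at chr4:95052223-95052472 on the minus strand, Dusp1 at chr17:26508473-26508722 on the minus strand, Spry2 at chr14:105896820-105897069 on the minus strand and Fos at chr12:85473640-85473889 on the plus strand. Capitals mark matches to the motifs searched.
Jun: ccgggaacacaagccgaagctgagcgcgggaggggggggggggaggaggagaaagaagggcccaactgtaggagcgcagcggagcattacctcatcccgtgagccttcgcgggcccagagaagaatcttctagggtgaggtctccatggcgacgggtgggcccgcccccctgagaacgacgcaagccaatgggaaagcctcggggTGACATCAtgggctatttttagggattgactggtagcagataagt
Dusp1: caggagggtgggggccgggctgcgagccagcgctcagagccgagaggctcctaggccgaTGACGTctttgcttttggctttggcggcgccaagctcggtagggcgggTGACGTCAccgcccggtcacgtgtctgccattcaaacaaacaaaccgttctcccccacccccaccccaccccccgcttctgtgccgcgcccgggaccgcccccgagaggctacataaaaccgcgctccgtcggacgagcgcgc
Spry2: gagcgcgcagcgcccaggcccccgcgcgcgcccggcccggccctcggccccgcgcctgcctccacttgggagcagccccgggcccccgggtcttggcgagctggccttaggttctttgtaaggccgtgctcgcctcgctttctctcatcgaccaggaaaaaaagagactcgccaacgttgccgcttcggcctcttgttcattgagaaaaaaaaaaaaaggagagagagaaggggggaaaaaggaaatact
Fos: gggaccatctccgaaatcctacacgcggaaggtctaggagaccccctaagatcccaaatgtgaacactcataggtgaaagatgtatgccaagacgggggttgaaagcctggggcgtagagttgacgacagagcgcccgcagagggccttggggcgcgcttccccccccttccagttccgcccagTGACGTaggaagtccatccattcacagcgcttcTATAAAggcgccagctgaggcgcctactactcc

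A set of 8 motifs was searched on both strands of these 250 bases: the AP-1 site TGANTCA, the cyclic AMP response element TGACGTCA and its shorter core TGACGT, which overlap by construction, the AP-1-like site TGACATCA, the TATA sequence TATAAA, the Egr site GCGGGGGCG, the ETS site CCGGAAGT, and the serum response factor site, searched as the CArG box. Dusp1 held TGACGTCA, with its first base 143 bases before the start, a motif in 1.55% of the 32851 promoters searched, and a further TGACGT at 191 bases. TGACGT occurred in 6.47% of all promoters and was also held by Fos, 66 bases before the start, and by Atf3, 8 bases before it. The Atf3 window, chr1:191183334-191183583, lies inside the annotated span of the gene, chr1:191170296-191218039 on the minus strand. The RefSeq start used for Atf3 is thus not the outermost annotated start. Jun held TGACATCA 45 bases before the start, a motif of 2.93% of promoters. Fos held TATAAA 33 bases before the start, as did 12.4% of promoters anywhere in the window. No match to TGANTCA (6.75% of all promoters), the CArG box (1.47%), GCGGGGGCG (2.57%) or CCGGAAGT (2.88%) was present in these windows for the 7 members, and Spry2, Junb and Dusp6 held none of the 8 motifs. A match describes the letters in the window and is not a measurement of binding. Sites beyond these 250 bases, and the promoters of Fosl1, Egr1 and Spry4, were not searched, so an absence holds for these windows only.

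The deposited values are FPKM, fragments per kilobase of transcript scaled to the depth of each sample, and so allow levels to be compared between genes. Fragments were recovered from the values and summed over the 25898 genes that gave whole fragments in every sample. These sums, which leave out the other genes, were 21922594 to 29017310 with saline and 21864604 to 33147402 with StcE. The ranges overlapped. The cells carried the endothelial markers, with all 11 listed genes tested. The neuronal, astrocyte, microglial and epithelial markers with values were each below 0.1 FPKM in every sample. Cdh1 (epithelial), Rgs5 (pericyte) and Lum (fibroblast) were listed but had no values. Of the pericyte and fibroblast markers with values, only Acta2 (3.08 ± 1.18 FPKM with saline, 3.19 ± 0.728 with StcE) and Pdgfra (1.18 ± 0.106 and 1.29 ± 0.129) were high enough to be tested, and neither passed. Of the 11 endothelial markers, 5 were lower and 1 was higher after StcE, beside 6.41% lower and 5.52% higher over all genes tested. The summed level of the 11 was 1868 to 2007 FPKM with saline and 1817 to 1891 with StcE. The part of the endothelial shift in the results that follow was not tested, and in bulk RNA fewer cells with a transcript and less of it per cell cannot be told apart.

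In both groups Fosl1 was the most abundant member and Fos the least (the plot of members by sample). The mean FPKM with saline descended from Fosl1 (91.6) through Dusp1 (81.1), Jun (56.8), Dusp6 (48.6), Junb (19.9), Atf3 (16.7), Spry2 (10.8), Spry4 (3.79) and Egr1 (3.20) to Fos (0.586). Neighbours in this order did not overlap between samples of the group except Spry4 and Egr1, which overlapped with saline and also with StcE, where Egr1 (4.12) was placed above Spry4 (4.05). Within the Fos family, Fosl1 made up 72.8% ± 0.963 (SD, n = 5) of the summed FPKM with saline and 75.4% ± 0.363 with StcE, and Fosl2 made up 25.4% ± 0.873 and 23.0% ± 0.351. Fos itself contributed 0.467% ± 0.0739 and 0.338% ± 0.0661. In the Jun family, Jund made up 47.8% ± 1.43 of the sum with saline and 43.2% ± 3.47 with StcE, Jun 38.6% ± 0.583 and 41.9% ± 2.67, and Junb 13.6% ± 1.08 and 14.9% ± 0.981, so that Jund and Jun lay closer together after StcE. The shares of a family are not independent of each other and are given without a test. For Fosl1, 57.2% of the annotated exon length overlaps Ccdc85b on the opposite strand. What this does to the level, rank and share of Fosl1 was not tested.

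**Figure D1:**
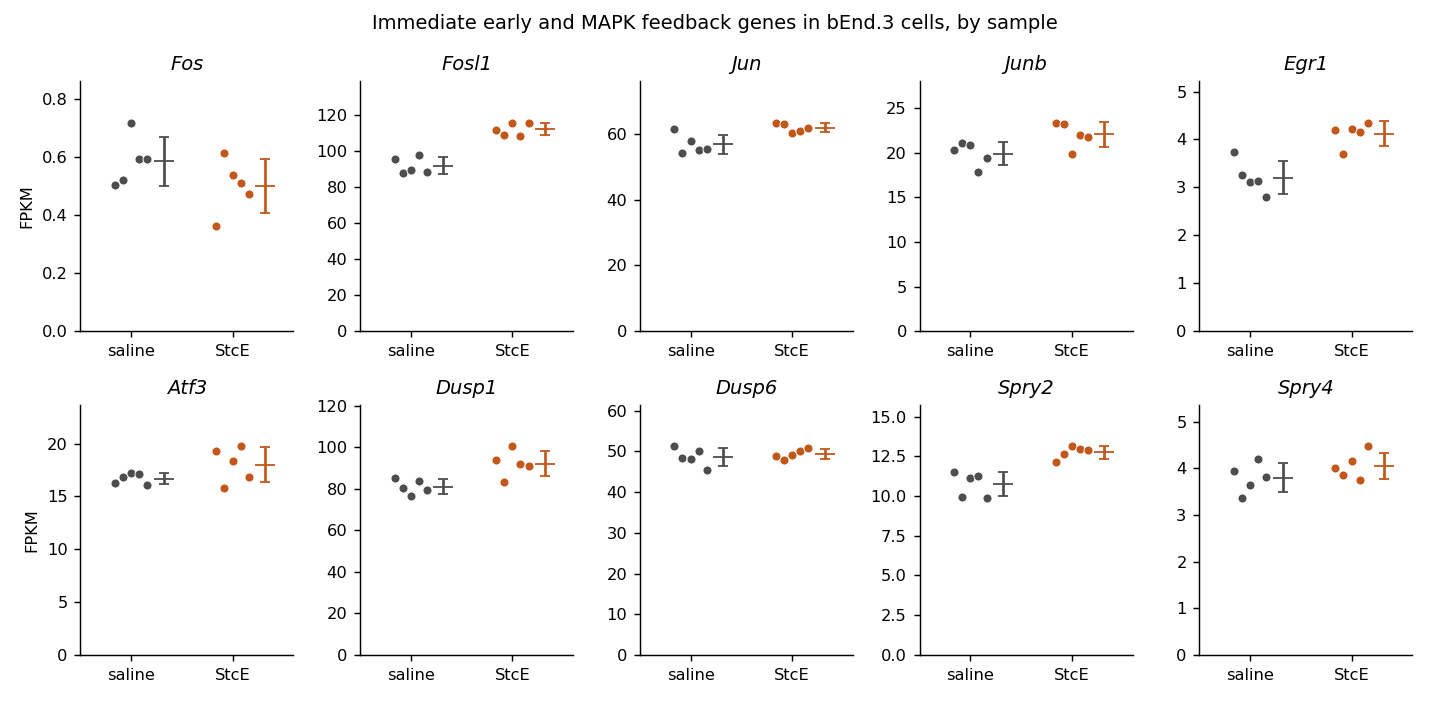
FPKM of the 10 members (vertical axes, from 0, one scale per gene) in the 5 saline (grey) and 5 StcE (orange) samples; points are samples in replicate order and the bar beside them is the mean ± SD. The groups separate without overlap for Fosl1 and Spry2, and the points for Dusp6 share one range.

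Of the 9 members tested, 5 were higher after StcE at an adjusted p under 0.05 (limma on log2(FPKM + 1), Benjamini-Hochberg over all genes tested) and 0 were lower, nor was any lower at an unadjusted p under 0.05 or with voom. Fosl1, Egr1, Spry2, Dusp1 and Jun passed, and Junb, Atf3, Spry4 and Dusp6 did not. Fos was below the mean of 1 FPKM required for testing. Among all 11062 genes tested, 5.52% were higher, 6.41% were lower and 11.9% passed in either direction. The differences were small: the median over the 9 members was 0.14 on the log2(FPKM + 1) scale, beside -0.00066 for all genes, and the largest was 0.29. The groups did not overlap for 2 of the 9 members, Fosl1 and Spry2, beside 10.7% of all genes tested. Of the 5 calls, those for Fosl1, Egr1 and Spry2 held when any 1 sample was left out, whereas that for Jun was lost in 9 of the 10 such fits (adjusted p up to 0.077, limma) and that for Dusp1 in 6 (adjusted p up to 0.061, limma), in each case with the value still above 0. The 1 such fit in which Jun passed was that without saline sample 1, and the Dusp1 call was lost without saline sample 2, 3 or 5 or StcE sample 1, 3 or 5.

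**Figure D2:**
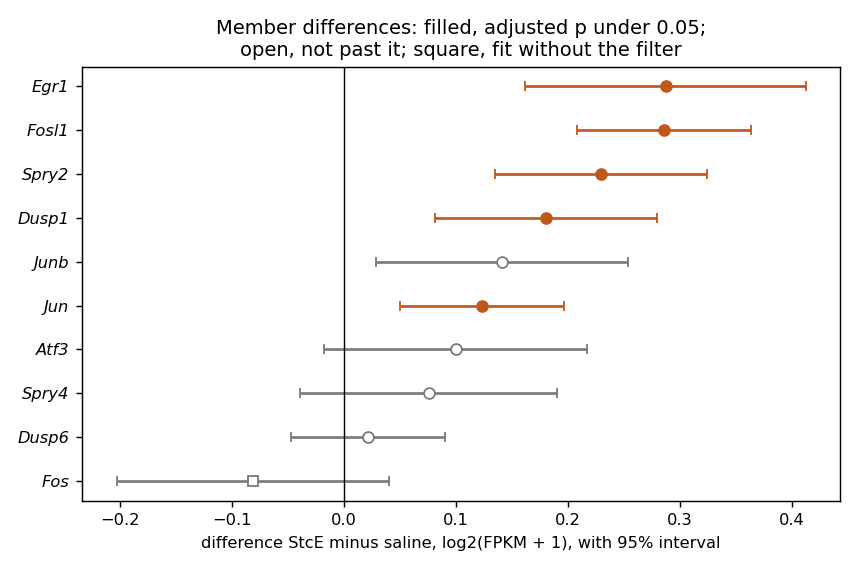
Difference between StcE and saline in log2(FPKM + 1) for each member (horizontal axis), with its 95% interval from limma; filled orange points have an adjusted p under 0.05 and the square marks Fos, taken from the fit without the filter on low values. Egr1 and Fosl1 lie furthest to the right, both at 0.29 on this scale, and the intervals of Atf3, Spry4, Dusp6 and Fos cross 0.

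Fosl1 encodes Fra-1, a Fos family protein without the strong transactivation domain of Fos that accumulates under sustained ERK signalling. Fosl1 FPKM was 95.6, 87.5, 89.0, 97.8 and 88.2 in saline samples 1 to 5 and 111, 109, 115, 108 and 115 in StcE samples 1, 2, 3, 5 and 6. Every treated sample lay above every control sample. The mean rose from 91.6 ± 4.71 to 112 ± 3.41 FPKM (SD, n = 5 each), a ratio of 1.22, and the difference was 0.29 on the log2 scale (SE 0.035, adjusted p = 0.00046, limma). The exact two-sided permutation test over all arrangements of the samples gave p = 0.00794, the smallest that it can give. The gene lies at chr19:5447547-5455946 on the plus strand (GRCm38), and 57.2% of its annotated exon length overlaps Ccdc85b on the opposite strand. The libraries kept strand, but whether the counting used it is not given in the sources used here. The level of Ccdc85b was 389 ± 17.6 FPKM in controls and 387 ± 17.1 in treated samples. Its difference was -0.0092 on the log2 scale (95% interval -0.092 to 0.074), and the interval for Fosl1 was 0.21 to 0.36. What the overlap contributes to the Fosl1 difference was not tested. The deposited Fosl1 values were made with a shorter exon length than the annotation used here, so the overlap in the counted exons may differ.

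Fos, the prototype of the class, was the least abundant member. Its FPKM was 0.503, 0.520, 0.718, 0.593 and 0.595 with saline and 0.361, 0.615, 0.539, 0.510 and 0.472 with StcE, which rests on 20 to 45 fragments per sample. The groups overlapped, and 4 of the 5 treated samples were below the control mean. In a fit of all 27024 genes without the filter, in which 2.96% of genes passed in either direction, Fos differed by -0.081 on the log2(FPKM + 1) scale (95% interval -0.20 to 0.040, adjusted p = 0.57, limma), a scale that understates the change of a gene at this level. The ratio of the means was 0.853, and a difference was not detectable at this depth. The fitted difference was -0.047 without StcE sample 1 and -0.052 without saline sample 3.

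Among the Jun family members, the partners with which Fos proteins form AP-1, the estimates were smaller than for Fosl1, a contrast that was not tested. Jun FPKM was 61.4, 54.1, 57.8, 55.1 and 55.5 with saline and 63.4, 63.0, 60.3, 61.0 and 61.7 with StcE. Saline sample 1 fell inside the treated range, and the other 4 control samples lay below it. Jun rose from 56.8 ± 2.94 to 61.9 ± 1.30 FPKM, by 0.12 on the log2 scale (SE 0.033, adjusted p = 0.035, limma). Besides the fits with a sample left out, this call was lost with weights for each sample and without the filter on low values (adjusted p = 0.059 and 0.088, limma). Junb, which often opposes Jun at shared targets, had 20.4, 21.1, 20.9, 17.9 and 19.4 FPKM with saline and 23.4, 23.3, 19.9, 22.0 and 21.8 with StcE. The groups overlapped, with 4 treated samples above all controls and StcE sample 3 among them. The Junb difference of 0.14 (95% interval 0.029 to 0.25) did not pass (adjusted p = 0.10, limma), and without StcE sample 3 it was 0.18 (adjusted p = 0.049, limma). Reverse-strand neighbours overlap 7.28% of Jun exon length (Junos, below 0.3 FPKM) and 7.52% of Junb exon length (Prdx2, 78.3 ± 2.05 FPKM with saline and 75.6 ± 3.19 with StcE).

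Egr1 was low in level and had the highest ratio of means of the 10 members. Its FPKM was 3.73, 3.25, 3.11, 3.14 and 2.79 with saline and 4.19, 3.69, 4.22, 4.16 and 4.35 with StcE. Only StcE sample 2 reached into the control range, where it lay just below saline sample 1. Egr1 rose from 3.20 ± 0.342 to 4.12 ± 0.253 FPKM, a ratio of 1.29 and a difference of 0.29 on the log2(FPKM + 1) scale (SE 0.057, adjusted p = 0.0083, limma). This scale understates the change of a gene at this level: with a pseudocount of 0.1 the Egr1 difference was 0.36, beside 0.29 for Fosl1. For Atf3 the treated samples spread more widely than the controls. Atf3 FPKM was 16.3, 16.8, 17.2, 17.1 and 16.0 with saline and 19.3, 15.8, 18.4, 19.7 and 16.9 with StcE. In StcE, 3 samples were above every control and StcE sample 2 was below every control. The difference was 0.10 (95% interval -0.018 to 0.22) and did not pass (adjusted p = 0.25, limma).

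Of the phosphatases, Dusp1, a nuclear enzyme that acts on p38, JNK and ERK, rose, whereas Dusp6, a cytoplasmic enzyme selective for ERK and a widely used readout of ERK activity, did not pass. Dusp1 FPKM was 85.4, 80.4, 76.6, 83.8 and 79.3 with saline and 93.8, 83.4, 100.4, 92.0 and 90.9 with StcE. The groups overlapped, with 4 treated samples above all controls and StcE sample 2 inside their range. The mean went from 81.1 ± 3.52 to 92.1 ± 6.10 FPKM, a difference of 0.18 on the log2 scale (SE 0.045, adjusted p = 0.026, limma), and the call was lost without the filter on low values (adjusted p = 0.082, limma). Dusp1 is at chr17:26505590-26562128 on the minus strand (GRCm38) and shares 0.33% of its exon length with Ergic1 on the other strand. The printed promoter window, chr17:26508473-26508722, lies inside this span, since the RefSeq start used for it is not the outermost annotated start. Dusp6 FPKM was 51.2, 48.4, 48.0, 50.02 and 45.5 with saline and 48.8, 47.8, 49.2, 50.1 and 50.9 with StcE. The treated values all lay within the control range. The difference was 0.021 (95% interval -0.048 to 0.090, adjusted p = 0.71, limma), so the interval excludes a rise as large as the estimate for Dusp1, although the difference between the genes was not itself tested.

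Among the Sprouty genes, both of which encode inhibitors of receptor tyrosine kinase signalling to ERK, Spry2 rose and Spry4 did not pass. Spry2 FPKM was 11.5, 9.94, 11.2, 11.3 and 9.90 with saline and 12.1, 12.7, 13.1, 12.9 and 12.9 with StcE. All treated samples lay above all controls. Spry2 went from 10.8 ± 0.770 to 12.8 ± 0.391 FPKM, a ratio of 1.19 and a difference of 0.23 on the log2 scale (SE 0.043, adjusted p = 0.0061, limma). The gene is at chr14:105891947-105896819 on the minus strand (GRCm38), and no other annotated gene overlaps its exons. Spry4 FPKM was 3.95, 3.36, 3.65, 4.19 and 3.81 with saline and 4.003, 3.86, 4.15, 3.75 and 4.47 with StcE. The Spry4 groups overlapped, and only StcE sample 6 lay above all controls. Its difference was 0.075 (95% interval -0.039 to 0.19, adjusted p = 0.38, limma), and 0.042 without saline sample 2 or 0.046 without StcE sample 6.

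Whether members rose and fell together from sample to sample was examined within the groups. A set of 6 pairs of members was compared by the deviation of each sample from its group mean, over 10 samples with exact permutation within groups (all arrangements, two-sided, adjusted over the 6 pairs). Pearson's r was 0.49 for Spry2 with Spry4 (permutation p = 0.21, adjusted p = 0.43; Spearman's rho 0.49, p = 0.22, adjusted p = 0.34) and 0.42 for Dusp6 with Spry4 (permutation p = 0.29, adjusted p = 0.44; rho 0.53, p = 0.16, adjusted p = 0.34). None of the 6 pairs passed. Fos with Egr1 had the most negative value, with r = -0.56 (permutation p = 0.095, adjusted p = 0.43) and rho = -0.56 (p = 0.11, adjusted p = 0.34). Without the 2 samples farthest in Fos, saline 3 and StcE 1, r for Fos with Egr1 was -0.84 (exact permutation p = 0.0052, adjusted p = 0.031, n = 8), so the value rests on which samples are kept and on a gene with few fragments. Fos with Dusp1 had r = -0.52 (permutation p = 0.16, adjusted p = 0.43; rho -0.45, p = 0.22, adjusted p = 0.34) and -0.44 without those 2 samples. Jun with Atf3 had r = -0.18 (permutation p = 0.47, adjusted p = 0.56; rho 0.0061, p = 1, adjusted p = 1), and Fos with Junb r = -0.15 (permutation p = 0.66, adjusted p = 0.66; rho -0.26, p = 0.49, adjusted p = 0.59). Leaving out the 2 farthest samples gave r = 0.24 for Spry2 with Spry4, 0.64 for Dusp6 with Spry4, -0.14 for Jun with Atf3 and -0.17 for Fos with Junb.

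**Figure D3:**
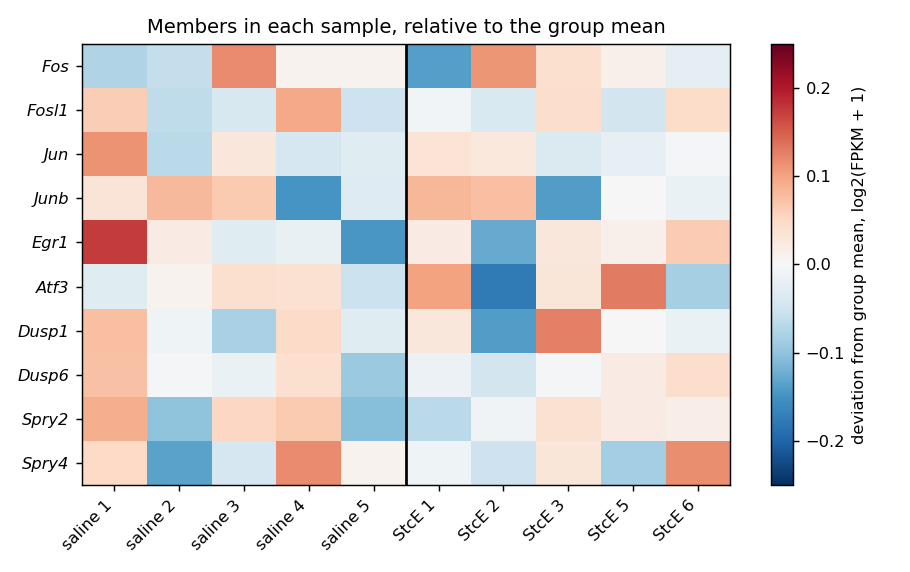
Deviation of each member from its group mean in log2(FPKM + 1) (colour, red above and blue below the mean) in the 5 saline samples, left of the line, and the 5 StcE samples, right of it. Spry4 and Fosl1 share their high samples, saline 4 and StcE 6, and Egr1 and Dusp6 are both lowest in saline 5.

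Ranked by the same deviations against the 11060 other tested genes with a name of their own, the nearest member was usually far down the order. The exceptions were Fosl1, for which Spry4 was placed 14th (r = 0.88), and Egr1, for which Dusp6 was placed 9th (r = 0.88). From the other side, Fosl1 was 20th for Spry4 and Egr1 was 19th for Dusp6. The 2 genes nearest to Fosl1 were Phf20 (r = 0.96) and Rnf111 (r = 0.93), those nearest to Egr1 were Zfp598 and Spats2 (both r = 0.92), and those nearest to Spry2 were St3gal2 and Med15 (both r = 0.95). Jun was nearest to Gm8116 (r = 0.95) and Fbxo46 (r = 0.93), Junb to St3gal4 (r = 0.96) and Alg8 (r = 0.93), and Atf3 to Fam76a (r = 0.92) and D1Ertd622e (r = 0.89). Dusp1 was nearest to Acyp2 (r = 0.98) and Scp2-ps2 (r = 0.94), Dusp6 to Ktn1 (r = 0.95) and Ephb1 (r = 0.94), and Suco was among the nearest to Spry4 (r = 0.93). These values are descriptions over 10 samples whose genes share a library and its scaling, and with so many genes compared a high r is found for each.

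Relatives of the members showed both directions (the plot of gene lists). The list counts that follow stand beside 5.52% higher and 6.41% lower over all genes tested. Of 13 other AP-1, ATF and Maf family factors tested, 2 were higher and 0 lower by limma (0 lower also at an unadjusted p under 0.05 and by voom), with a median of 0.042 on the log2(FPKM + 1) scale. Maff, a small Maf protein that lacks a transactivation domain, rose from 19.9 ± 1.08 to 26.2 ± 2.13 FPKM (0.38, SE 0.053, adjusted p = 0.0011, limma), a larger estimate than that of any member. Batf3, a partner of Jun proteins, rose from 6.11 ± 0.275 to 7.71 ± 1.02 FPKM (0.28, adjusted p = 0.023, limma), a call lost without saline sample 3 or 4 or StcE sample 5 (0.23 to 0.33 with any 1 sample left out). Jund, the most abundant of the list, went from 70.3 ± 4.18 to 64.3 ± 8.94 FPKM, a difference of -0.14 (95% interval -0.33 to 0.054) that did not pass and was -0.047 without StcE sample 6. The Fos relatives did not pass either, with 0.091 for Fosl2 and 0.043 for Fosb.

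Of 32 other immediate early genes tested, 12 were higher (37.5%) and 3 were lower, with a median of 0.092. Ier3, a survival factor and ERK target, rose from 26.5 ± 1.86 to 33.7 ± 2.44 FPKM (0.34, adjusted p = 0.0026, limma), and Hbegf, a ligand of the EGF receptor, from 38.8 ± 2.49 to 48.8 ± 1.34 (0.33, adjusted p = 0.00048, limma). The repressor Bhlhe40 rose by 0.28, the TGFβ-inducible factor Klf10 by 0.26 and the stress sensor Gadd45g by 0.25. Its paralogue Gadd45a went the other way, from 2.81 ± 0.350 to 2.25 ± 0.172 FPKM (-0.23, adjusted p = 0.040, limma). That call held only without saline sample 5 or StcE sample 1 among the fits with 1 sample left out, which gave -0.26 to -0.18. Rhob, a small GTPase, was also lower (-0.19), as was Zfp36l1, a factor that promotes mRNA decay (-0.18), the latter not without saline sample 1, 3 or 4 or StcE sample 1, 3 or 5 (-0.20 to -0.14 with any 1 sample left out).

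Feedback genes outside the 10 members also included some that were higher and some that did not pass. Of 9 other MAPK phosphatases tested, 3 were higher and 1 lower (median -0.014). Dusp5, a nuclear ERK-selective phosphatase, rose from 20.6 ± 1.37 to 26.9 ± 1.15 FPKM (0.37, adjusted p = 0.00038, limma), and Dusp14 and Dusp4 rose by 0.16 and 0.11. With 1 sample left out Dusp14 gave 0.14 to 0.18 and was not called without saline sample 4 or 5 or StcE sample 1, 2 or 3, and Dusp4 gave 0.084 to 0.12 and was called only without saline sample 1 or StcE sample 1. Dusp16, which acts mainly on JNK, was lower (-0.27, adjusted p = 0.0045, limma). Of 10 other genes of ERK feedback and output tested, 5 were higher and 0 lower by limma (0 lower also at an unadjusted p under 0.05 and by voom), with a median of 0.084. Etv4, an ETS factor downstream of ERK, rose by 0.28, Phlda1 by 0.28, the receptor Epha2 by 0.17, the EGF receptor inhibitor Errfi1 by 0.15 and the cyclin Ccnd1 by 0.11. With 1 sample left out Errfi1 gave 0.13 to 0.17 and was not called without saline sample 1 or 5 or StcE sample 1, 5 or 6, and Ccnd1 gave 0.087 to 0.12 and was called only without saline sample 1 or 4 or StcE sample 1. Ccnd1 was the most abundant, at 705 ± 22.8 and 759 ± 20.9 FPKM. The 3 Spred genes and Etv5 did not pass, with differences from 0.011 to 0.063.

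Most kinases and adaptors that carry the signal did not pass the test, as held for most genes. Of all 11062 genes tested, 11.9% passed in either direction. Of the 24 genes of the Ras-ERK cascade tested, 1 was higher and 3 were lower (median -0.0054). Mapk3, which encodes ERK1, fell from 140 ± 4.29 to 122 ± 2.35 FPKM (-0.20, adjusted p = 0.00048, limma). The scaffold Ksr1 was lower by -0.24 and the ETS repressor Elk3 by -0.14, and the ERK kinase Map2k1 rose by 0.098. The Map2k1 call was lost without saline sample 2, 3 or 5 or StcE sample 1, 3 or 5 (0.087 to 0.11 with any 1 sample left out). Of 15 genes of the JNK and p38 cascades tested, 0 passed by limma and 0 passed by voom. An unadjusted p under 0.05 (limma) was found for 4 of the 15, 3 of them lower, beside 3071 of all 11062 genes tested. The most abundant gene of these cascades, Map2k3, differed by 0.044 (95% interval -0.012 to 0.10).

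Genes that accompany Atf3 in the ATF4 stress response were counted beside it. Of 8 tested, 3 were higher and 1 lower (median 0.12). Atf4 itself rose from 64.8 ± 1.54 to 77.1 ± 2.72 FPKM (0.25, adjusted p = 0.00024, limma), Asns, the asparagine synthetase, by 0.23 and Chac1, which degrades glutathione, by 0.15. The Chac1 call was lost without saline sample 2, 3 or 4 or StcE sample 1 or 5 (0.13 to 0.17 with any 1 sample left out). Vldlr, a lipoprotein receptor, was lower (-0.25, adjusted p = 0.0079, limma), and Ddit3, which encodes CHOP, differed by 0.039 (95% interval -0.051 to 0.13). Sesn2 went from 11.8 ± 0.295 to 10.7 ± 0.671 FPKM, a difference of -0.13 that did not pass (adjusted p = 0.053, limma). By voom 4 genes of this list passed, 2 of them lower.

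**Figure D4:**
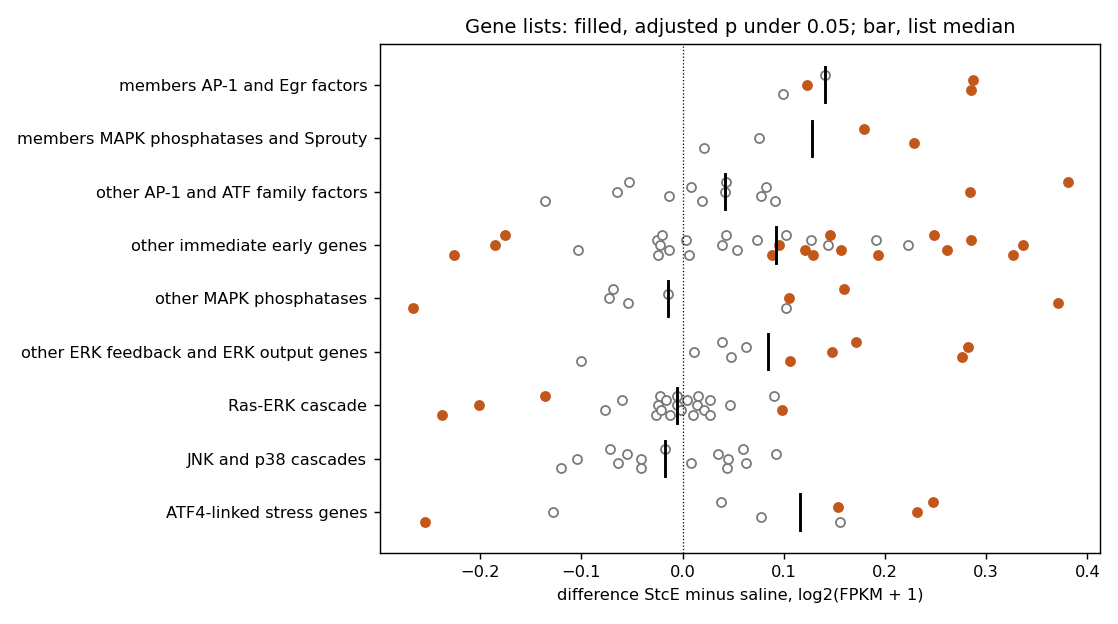
Difference between StcE and saline in log2(FPKM + 1) (horizontal axis) for every tested gene of each list (rows); filled points have an adjusted p under 0.05, open points do not, and the black bar is the list median. The medians of the members' lists are 0.14 and 0.13, while the Ras-ERK cascade and the JNK and p38 cascades centre near 0.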

How the data were processed

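RNA was extracted from bEnd.3 cultures, and poly-A, strand-preserving (dUTP) libraries were sequenced as paired ends. The authors aligned trimmed reads to the mouse genome (mm10, GRCm38), and the submitters' processing notes name HISAT2 2.0.5, featureCounts 1.5.0-p3 and DESeq2 1.32.0. The annotation release and the strand setting of the counting are not given in the sources used here. The deposited values, made by the authors, are FPKM per gene and sample, and all 10 sample columns were mapped to their labels. Of the deposited rows, 22874 were empty and were left out.

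FPKM was analysed as log2(FPKM + 1) for genes with a mean of at least 1 FPKM over all samples, with limma 3.58.1 in R 4.3.3 (moderated test with a mean-variance trend), StcE against saline without covariates, and Benjamini-Hochberg adjustment over all genes tested at a threshold of 0.05. Fold differences are on that log2 scale. Single values were tested with an exact two-sided permutation test over samples. Whole fragments were recovered from the FPKM steps and GENCODE exon lengths (96.65% of positive values whole within 0.05 fragments). The depths given are sums over the genes with whole fragments in every sample. For 3 members (Fosl1, Dusp1 and Spry4) another length than that of GENCODE was needed. Depth and fragment numbers cover counting error only. Overlapping genes and copies were sought in GENCODE annotation and with BLAST 2.17.0 (identity of at least 95% over 150 bases), and no member had a copy outside its own locus. The fit was tested on simulated data.

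All 10 members are named, with, from each other list, every gene past the threshold if these were at most 6, otherwise the 6 with the largest change, the most abundant gene, and for each member the 2 genes with the most similar deviations. Rhob, Zfp36l1, Fosl2, Fosb, Etv5, the Spred genes, Ddit3, Sesn2, the marker genes and the overlapping neighbours were added after their values were seen. A few results that fall under this rule are not reported here. The members and lists were chosen with earlier results of these data known. The alternatives were the pseudocount, the filter, the scaling, the trend, sample weights, a replicate block and each sample left out, and, chosen after seeing the data, total fragment scaling, voom on recovered fragments and the 8 samples of the block without it.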

Additional observations from a re-analysis of the deposited data

Results flagged for a closer look

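Among the members and the named list genes, 3 of the 78 groups of 5 samples held a value set apart from the rest by a gap over 0.71 of the group's range. Chance alone sets apart about 1 in 20 groups, or 3.9 of 78. Egr1 in StcE sample 2 was 3.69 FPKM, below the 4.16 to 4.35 of the other treated samples, and without that sample the Egr1 difference still passed. Batf3 in saline sample 1 was 6.59 FPKM, above the 5.90 to 6.08 of the other controls. Jund in saline sample 2 was 63.2 FPKM, below the 71.1 to 74.3 of the other controls.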

How the results depend on the processing

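Of 198 refits of the 9 tested members under 22 alternatives, 197 gave a higher value after StcE, and 0 gave a lower value past the threshold. The exception was Dusp6 without saline sample 5, at -0.0018. The count of members past the threshold was 3 without the filter, 1 with the replicate block and 3 in the 8 samples of that block fitted without it, all of them higher after StcE, and ranged from 3 to 5 with 1 sample left out, being 3 without saline sample 2, 3 or 5 and without StcE sample 1 or 5. The count over all genes was 801 without the filter (392 higher, 409 lower), 349 with the block (187 higher, 162 lower), 885 in the 8 samples without the block (433 higher, 452 lower), and from 793 to 1255 with 1 sample left out (384 to 588 higher, 409 to 667 lower), lowest without StcE sample 3, and at 838 without saline sample 1. The fit without a filter tests more genes. The same 8 samples gave 885 genes without the block and 349 with it, beside 1320 in all 10 samples. What the smaller number of samples, the block term and other causes each contribute to the fall was not tested.

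Samples of the 2 groups share the replicate numbers 1, 2, 3 and 5. The deviations of same-numbered samples correlated at -0.097, -0.023, -0.027 and 0.054, and 0 of these 8 samples correlated best with its own number in the other group. Same-numbered samples thus showed no common deviation, but the labels do not say whether they were paired by design. The block drops 2 of the 10. With the replicate block Fosl1 passed, and the values for Egr1 (0.27, adjusted p = 0.089), Spry2 (0.24, adjusted p = 0.069), Dusp1 (0.20, adjusted p = 0.12) and Jun (0.11, adjusted p = 0.16) were kept in direction without passing (limma). In the same 8 samples without the block, Dusp1 (0.20) and Jun (0.11) did not pass. Without the filter Jun (0.12) and Dusp1 (0.18) did not pass, nor did Jun with sample weights (0.11). With 1 sample left out the log2 differences ranged from 0.27 to 0.31 for Fosl1, 0.25 to 0.33 for Egr1, 0.20 to 0.25 for Spry2, 0.15 to 0.21 for Dusp1, 0.11 to 0.15 for Jun, 0.10 to 0.18 for Junb, 0.067 to 0.14 for Atf3, 0.042 to 0.10 for Spry4, -0.0018 to 0.040 for Dusp6 and -0.11 to -0.047 for Fos. Median ratio, upper quartile and total fragment scaling, voom on recovered fragments, a pseudocount of 0.1, a filter at 0.1 FPKM and the fits without a trend or with robust moderation kept all 5 calls. Jun was kept only narrowly with the filter at 0.1 FPKM (adjusted p = 0.0494, limma) and without a trend (adjusted p = 0.0498, limma). Of the 22 alternatives, 9 kept the Jun call and 13 the Dusp1 call. Leaving out the 2 farthest samples brought Fos with Egr1 past the threshold (r = -0.84).

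Of 637 refits of the 29 named list genes, 551 kept their direction and side of the threshold, 86 lost the threshold and 0 reversed. The numbers of other immediate early genes that were higher ranged from 5 to 14, against 12 in the reported fit, and of those that were lower from 0 to 3. Fos, at 20 to 45 fragments per sample, is the member for which depth limits the comparison most.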
